A study of Homo sapiens with 24 samples.

Results

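The 8 genes described here encode enzymes of heme synthesis: ALAS1, ALAS2, ALAD, UROS, UROD, CPOX, PPOX and FECH. They were chosen by name, and all 8 were found by symbol among the 12285 genes of the expression table. RNA came from K562, an established human leukaemia line with erythroid features. The cells were synchronized in the cell cycle by centrifugal elutriation, which sorts cells by size, and were then grown in RPMI medium with bovine calf serum and P/S. No drug, allele or other treatment set the samples apart, and time was the only variable. Total RNA was sequenced in 24 libraries taken every 2 h from 0 h to 46 h, 1 library per time point, so no value has a replicate. Levels are FPKM (fragment counts that the authors' pipeline scaled by transcript length and library size). The study was made to find and correct time points (STRIPEs) at which the levels of a large part of the transcriptome depart from their neighbors, and it named 16 h and 18 h as STRIPEs and 32 h as a mild one. The first 12 time points (0 h to 22 h) and the next 12 (24 h to 46 h) are called the first and the second day.

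Heme is the iron-holding ring of hemoglobin, the cytochromes and other proteins, and red cell precursors make most of the body's heme. ALAS1, present in all tissues, and ALAS2, the erythroid form, carry out the first and rate-limiting step in the mitochondrion, joining glycine and succinyl-CoA to 5-aminolevulinic acid. ALAD joins molecules of that acid to porphobilinogen in the cytosol, UROS closes a linear tetrapyrrole into the uroporphyrinogen ring, and UROD removes carboxyl groups from it. CPOX and PPOX oxidize the ring in the mitochondrion, and FECH inserts iron into it. In erythroid cells, GATA1 drives ALAS2 transcription and iron controls ALAS2 translation, whereas ALAS1 is held down by heme itself.

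K562 carried the marks of this lineage. All 12 erythroid markers listed for the check were in the table, with median levels from 13.2 FPKM (EPOR, the erythropoietin receptor) to 2434 FPKM (HBG2, a fetal globin). Of 5 megakaryocytic markers 2 were present (ITGA2B and GP1BB), of 5 myeloid markers 1 (LYZ), and of 5 fibroblast markers 2 (COL1A2 and VIM). The libraries at 16 h and 18 h had the largest summed levels (566247 and 591309 FPKM, against 456791 to 520382 FPKM elsewhere). Read counts could not be recovered from the values, so the depth is unknown.

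The promoters of ALAS2 and ALAS1 are shown because these isoenzymes of the same step moved differently in the series. Both are RefSeq sequences (GRCh38.p14), written 5′ to 3′ on the strand of the gene and covering 250 bases. The ALAS2 window ends at the last base before the start (chrX:55030978-55031227, minus strand), and capitals mark a match to AGATAA, the usual word bound by GATA factors, here on the opposite strand and beginning at -127. The ALAS1 window ends at the start base itself (chr3:52197834-52198083, plus strand), and capitals mark CGCNTGCGC (N is any base), a core of the element bound by NRF1, a factor of mitochondrial genes.
ALAS2: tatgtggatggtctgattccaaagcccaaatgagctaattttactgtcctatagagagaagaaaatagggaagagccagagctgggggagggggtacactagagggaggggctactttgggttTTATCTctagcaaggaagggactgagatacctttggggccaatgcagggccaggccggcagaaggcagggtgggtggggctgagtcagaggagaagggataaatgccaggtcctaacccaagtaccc
ALAS1: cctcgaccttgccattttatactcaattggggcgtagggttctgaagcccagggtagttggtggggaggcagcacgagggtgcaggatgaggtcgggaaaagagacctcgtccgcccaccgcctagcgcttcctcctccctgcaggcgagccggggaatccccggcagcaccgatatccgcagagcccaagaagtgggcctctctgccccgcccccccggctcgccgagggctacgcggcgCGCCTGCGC
Promoter entries were held for 7 of the 8 genes (9 promoters, none for UROS), each 300 bases long with 50 after the start. On either strand, AGATAA was found in 3 of the 9: ALAS2, CPOX (at -207 and -125) and the second PPOX promoter (-63). Of all 35116 promoters in the reference table, 10.3% held it. CGCNTGCGC was found only in the ALAS1 promoter among the 9, beginning at -8 and, in overlapping matches on both strands, at 22 and 23 counted from the start base, and in 7.52% of all promoters. No AGATAA overlapped a CGCNTGCGC in these windows.

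The 8 genes differed widely in level, and UROD stood far above the rest. UROD, the decarboxylase, lay between 228 FPKM (18 h) and 474 FPKM (6 h), with a median of 409 FPKM over the 24 libraries. FECH, the ferrochelatase, followed with 59.5 to 120 FPKM and a median of 67.2 FPKM. ALAS2 had a median of 59.7 FPKM (37.1 to 85.6) and PPOX of 58.4 FPKM (23.9 to 69.2). CPOX, at a median of 34.9 FPKM (31.9 to 59.8), and UROS, at 34.8 FPKM (28.4 to 40.8), were almost level. ALAS1, the housekeeping form of the first enzyme, had a median of 18.6 FPKM (14.7 to 22.8). ALAD was lowest with 8.71 FPKM (6.55 to 12.2), although its step follows directly on that of ALAS1 and ALAS2. UROD was above FECH, UROS above ALAS1 and ALAS1 above ALAD in 24 of 24 libraries. The order of the other neighbors changed over the series: FECH was above ALAS2 in 21 libraries, ALAS2 above PPOX in 14, PPOX above CPOX in 21 and CPOX above UROS in 17. With 16 h and 18 h left out, the coefficient of variation over 22 libraries ran from 7.86% for UROD to 25.8% for ALAS2, and its median was 11.7% over the 7169 genes that averaged 10 FPKM or more.

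**Figure D1:**
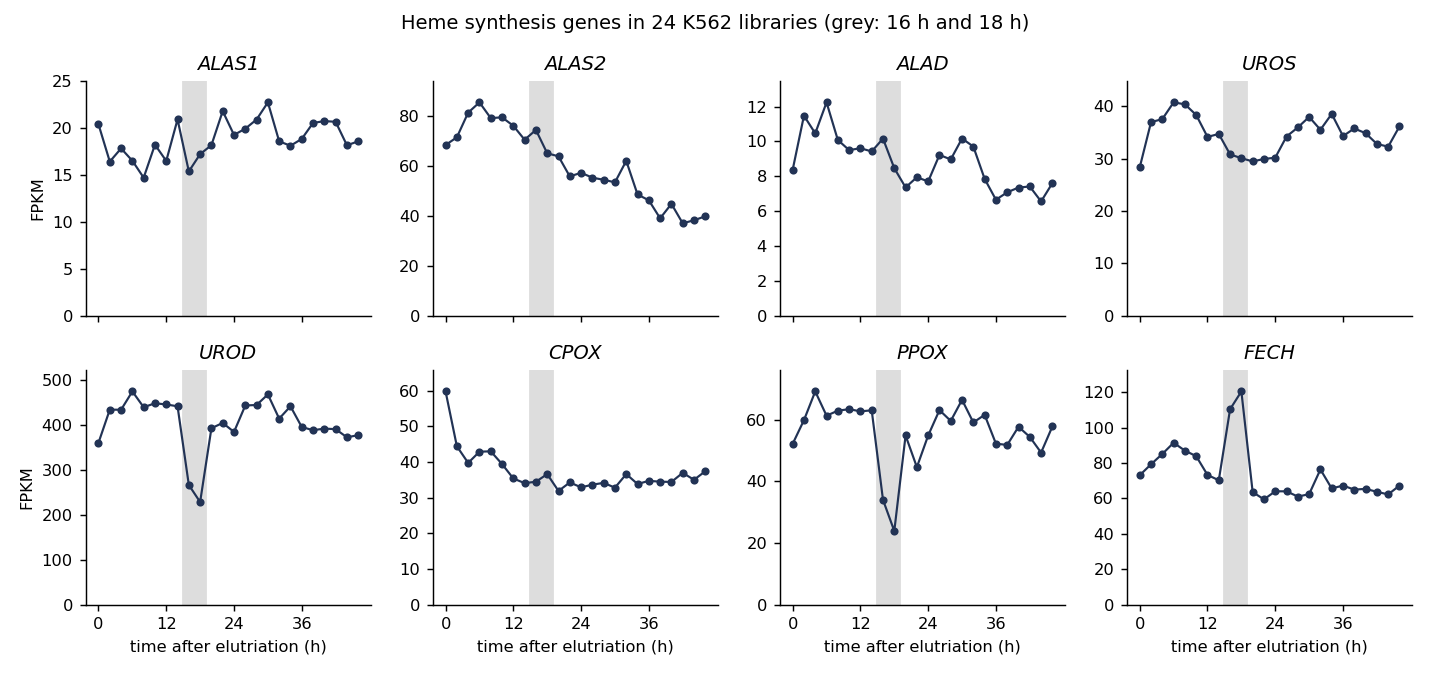
FPKM (vertical axis, from 0, a separate scale per gene) against hours after elutriation for the 8 genes, 1 point per library, with 16 h and 18 h shaded. ALAS2 runs down from 85.6 FPKM at 6 h to 37.1 FPKM at 42 h, UROD and PPOX drop in the shaded libraries and FECH is highest there.

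The second day was compared with the first at the same hour of the cycle, which sets 12 pairs of libraries 24 h apart against each other. ALAS2 fell the most. On the first day its levels were 55.9 to 85.6 FPKM (median 73.0) and on the second 37.1 to 62.1 FPKM (median 47.5). The days overlapped only because the 22 h library of the first day (55.9 FPKM) lay below those at 24 h (57.3 FPKM) and 32 h (62.1 FPKM). At 32 h, the mild STRIPE, ALAS2 lay above the mean of its neighbors by 0.28 and FECH by 0.25 on the log2(FPKM + 1) scale, and the other 6 genes by -0.13 to 0.13. ALAS2 was lower on the second day in 12 of 12 pairs, by 0.60 ± 0.063 (SE) on the log2(FPKM + 1) scale, a fold of 0.661 (limma with the hour as block, adjusted p = 5.73e-05 over 12253 genes). Adjusted p-values here and below are Benjamini–Hochberg adjusted, and 0.05 was the threshold. The pairs are time points of a single culture series and not replicate cultures, and neighboring hours are not independent, so these p-values measure the spread over hours only and may be too small.

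ALAD, the next enzyme, fell by 0.23 ± 0.052 (adjusted p = 0.00999, limma), from 7.36–12.2 FPKM (median 9.55) to 6.55–10.2 FPKM (median 7.65), and was lower in 12 of 12 pairs. FECH, the last enzyme, fell by 0.32 ± 0.087 (adjusted p = 0.0268, limma). Its levels were 59.5 to 120 FPKM (median 81.5) on the first day and 61.0 to 76.3 FPKM (median 64.5) on the second, lower in 11 of 12 pairs. The highest levels of FECH on the first day were those at 16 h and 18 h. Without the pairs that hold them FECH fell by 0.21 (adjusted p = 0.0429), and its adjusted p passed the threshold in 8 of 12 fits that each left out a single pair (0.0151 to 0.0562); the pairs whose removal ended the call were those starting at 4 h, 6 h, 10 h and 16 h. In all, 3 of the 8 genes were lower, against 5.16% of all genes tested, and 0 were higher, against 9.57%. Without the pairs of 16 h and 18 h the same 3 genes were lower (6.80% of all genes) and 0 higher (12.6%).

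The other enzymes gave no call. ALAS1 was at 14.7 to 21.8 FPKM (median 17.5) on the first day and 18.1 to 22.8 FPKM (median 19.6) on the second, higher in 7 of 12 pairs, a difference of 0.15 ± 0.066 (adjusted p = 0.149, limma). CPOX was at 31.9 to 59.8 FPKM (median 38.0) on the first day and 32.8 to 37.4 FPKM (median 34.5) on the second (difference -0.17, adjusted p = 0.174, limma). The CPOX difference was uneven: the 0 h library, at 59.8 FPKM, was the highest of the series, the 2 h library had 44.4 FPKM, and from 12 h on the gene stayed between 31.9 and 37.4 FPKM. UROS, UROD and PPOX differed by 0.03, 0.07 and 0.12 (adjusted p = 0.708, 0.611 and 0.493, limma). For UROD and PPOX the sign came from the low values at 16 h and 18 h, and without those pairs the differences were -0.05 and -0.04.

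**Figure D2:**
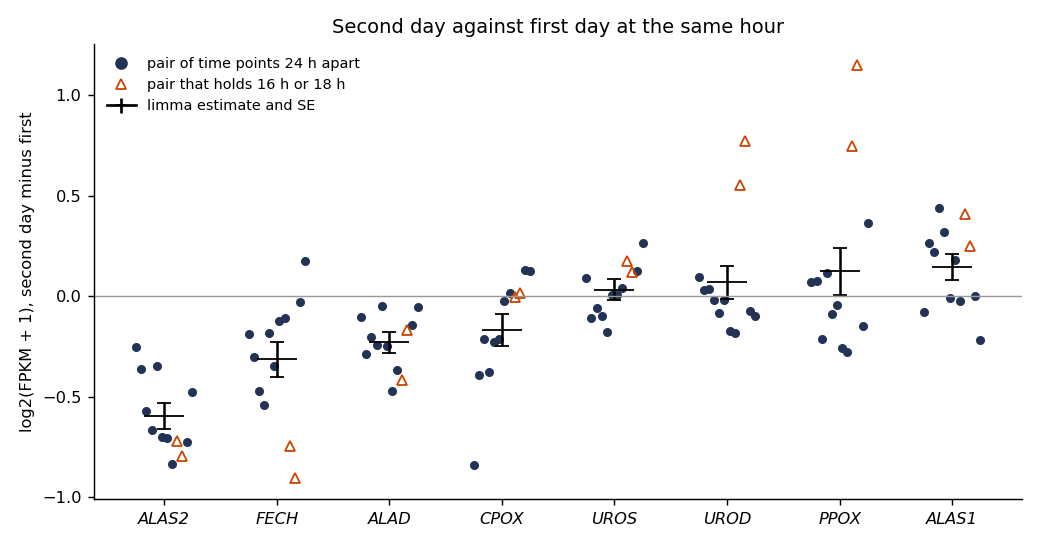
Difference in log2(FPKM + 1), second day minus first, for each gene: each point is a pair of libraries 24 h apart, triangles are the pairs that hold 16 h or 18 h, and the black bar is the limma estimate with its SE. All 12 points of ALAS2 and of ALAD lie below 0, and the triangles lie highest for UROD and PPOX and lowest for FECH.

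Averaged over the 12 pairs, the fall of ALAS2 exceeded the change of each other enzyme, though not in every pair. This comparison was chosen after the values were seen. ALAS2 was already known to have fallen the most, and the p-values do not allow for that choice. Set against ALAS1, the difference between the days was lower by 0.74 ± 0.30 (SD over 12 pairs) for ALAS2, and it was lower in 12 of 12 pairs (exact two-sided sign-flip permutation test, adjusted p = 0.000684 over 7 comparisons; the smallest raw p that 12 pairs allow is 0.000488). The result was the same, at 12 of 12 pairs and adjusted p = 0.000684, against ALAD (-0.37), UROS (-0.63), UROD (-0.67) and PPOX (-0.72). Against FECH (-0.28) and CPOX (-0.43) it held in 10 of 12 pairs (adjusted p = 0.00684 and 0.00879, same exact permutation test). The pairs of 16 h and 18 h widened the gaps to UROD and PPOX. There UROD differed by 0.55 and 0.77 and PPOX by 0.75 and 1.15 between the days. FECH fell more than ALAS2 in the same pairs (-0.75 and -0.91, against -0.72 and -0.80). Without them ALAS2 differed by -0.56, UROD by -0.05, PPOX by -0.04 and FECH by -0.21 (limma estimates). The permutation test was not repeated without them. The ratio of ALAS2 to ALAS1 FPKM was 5.38 at 8 h, its highest, and 1.79 at 42 h, its lowest. On the first day it lay between 2.56 and 5.38 (median 4.36) and on the second between 1.79 and 3.34 (median 2.40). In all 24 libraries the erythroid form was the more abundant transcript per length.

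**Figure D3:**
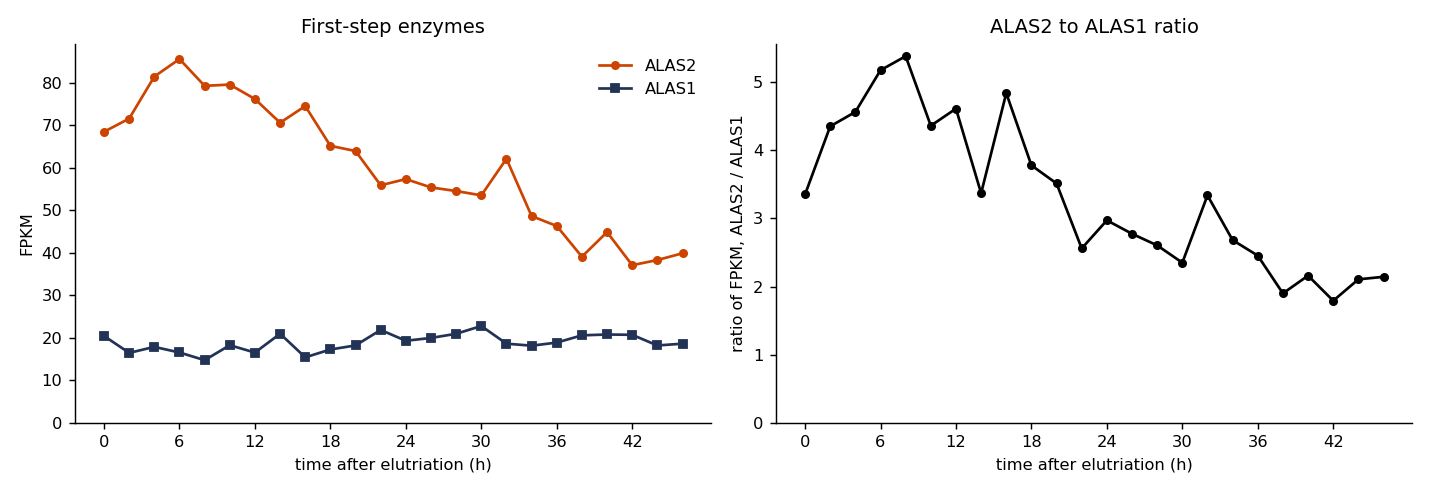
Left, FPKM of ALAS2 (circles) and ALAS1 (squares) by hours after elutriation; right, the ratio of the former to the latter, both axes from 0 and 1 point per library. The ratio falls from 5.38 at 8 h to 1.79 at 42 h, while ALAS1 stays between 14.7 and 22.8 FPKM.

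Of the 12 erythroid markers none passed the test between the days, and their median difference over all pairs was -0.03 on the log2 scale. Without the pairs of 16 h and 18 h, HBA2 (-0.39, adjusted p = 0.0103) and HBZ (-0.50, adjusted p = 0.00529, both limma), an adult and an embryonic globin, were lower. These were 2 of the 12, against 6.80% of all genes, and 0 were higher, against 12.6%. All markers but GATA1 then had a difference below 0, from -0.50 (HBZ) over -0.42 (HBG1) and -0.34 (HBG2) to -0.05 (HBE1). HBA2 has a near-identical copy, HBA1, so its reads may have been split between them. GATA1 differed by 0.30 (adjusted p = 0.131) and KLF1, an activator of adult globin genes, by 0.18 (adjusted p = 0.522, both limma). With the pairs of 16 h and 18 h left out, GATA1 differed by 0.10 (adjusted p = 0.190) and KLF1 by -0.09 (adjusted p = 0.414, both limma). Some markers of other lineages rose. ITGA2B, a platelet integrin, rose from a median of 1.47 to 5.42 FPKM (log2 difference 1.36, adjusted p = 0.000279), LYZ, the lysozyme of myeloid cells, from 13.2 to 26.1 FPKM (0.83, adjusted p = 1.70e-05) and COL1A2, a collagen, from 2.35 to 3.57 FPKM (0.35, adjusted p = 0.0163, all limma). GP1BB, a platelet glycoprotein, with medians of 79.6 and 53.0 FPKM (0.03, adjusted p = 0.983), and VIM, vimentin, with 137 and 126 FPKM (-0.04, adjusted p = 0.761, both limma), did not pass the test. GP1BB had 9.75 and 6.68 FPKM at 16 h and 18 h and 0.00107 FPKM in another library. Without the pairs of 16 h and 18 h GP1BB differed by -0.47 (adjusted p = 0.685, limma). The summed level of the 2 megakaryocytic markers was 2.88 to 97.7 FPKM on the first day and 5.82 to 81.5 on the second, that of the myeloid marker 10.7 to 22.2 and 19.8 to 28.2, and that of the 2 fibroblast markers 108 to 182 and 118 to 157. The other markers of these lists, among them PF4, MPO and COL1A1, had no row in the table, which holds only genes with 1 FPKM or more in at least 12 libraries. The part of these genes in the fall of ALAS2 was not tested. In bulk RNA, fewer cells of a type and less RNA per cell cannot be told apart.

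A cycle of 24 h was then looked for, since the study took 12 time points as a cell cycle. The test was the JTK statistic, the largest rank agreement with a 24 h cosine over its phases, with 100000 permutations. The permutations treat the time points as exchangeable. The libraries are of a single culture series and neighboring hours are not independent, so the JTK p-values here and below may be too small. JTK called 4 of the 8 genes, against 13% of all genes: UROS (adjusted permutation p = 0.00693, peak at 8 h of the cycle), UROD (0.0123, 6 h), PPOX (0.0166, 6 h) and ALAD (0.0380, 6 h). UROS was the clearest of these. Its level went from 28.4 FPKM (0 h) to 40.8 (6 h) and back to 29.5 (20 h), and again from 30.2 (24 h) over 38.0 (30 h) and 38.6 (34 h) to 32.3 (44 h), with 36.2 in the last library (46 h). ALAD made the same excursion at a lower level, from 8.37 FPKM (0 h) over 12.2 (6 h) to 7.36 (20 h), then from 7.70 (24 h) over 10.2 (30 h) to 6.55 (44 h). UROD, at 360 FPKM at 0 h and 384 at 24 h, reached 474 at 6 h and 467 at 30 h. PPOX went from 52.2 FPKM (0 h) to 69.2 (4 h) and from 54.9 (24 h) to 66.4 (30 h). All 4 thus had a maximum at 4 h to 10 h after each of the hours 0 and 24. The libraries at 6 h and 30 h had the largest summed levels outside 16 h and 18 h (510972 and 520382 FPKM). Outside 16 h and 18 h, 5 of the 8 genes were highest at 6 h, among them ALAS2 and FECH. With upper-quartile scaling UROS (0.0362), UROD (0.0321) and ALAD (0.0142) were called and PPOX was not (0.0694, adjusted permutation p). The part of library scale in the peak hours was not tested.

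ALAS2 (adjusted permutation p = 0.253), FECH (0.366), ALAS1 and CPOX (both 0.796) were not called. For orientation, the S-phase cyclin gene CCNE2 peaked at 2 h of the cycle (adjusted permutation p = 0.00573), and the mitotic cyclin gene CCNB1 had its best phase at 18 h without a call (0.137). The trough of UROD and PPOX at 16 h and 18 h falls where a 24 h cosine with a peak near 6 h is low. Without these libraries UROS (0.0147), UROD (0.0302) and ALAD (0.00745) were still called and PPOX was not (0.0638), 3 of 8 against 14.7% of all genes (permutation tests). With a straight-line trend taken out 3 of 8 were called against 13.5%, and ALAD was lost (adjusted permutation p = 0.128). Without 6 h and 32 h, an alternative chosen after the values were seen, ALAD was lost too (0.122). With the GC trend of each library removed, UROS alone was called among the 8.

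At 16 h and 18 h the 8 genes parted in both directions. Each level was set against the straight line between the flanking libraries at 14 h and 20 h on the log2(FPKM + 1) scale, and 16 other pairs of time points gave the reference. PPOX went from 63.0 FPKM (14 h) to 34.0 (16 h) and 23.9 (18 h) and back to 54.9 (20 h). Its mean deviation was -1.02, the largest of the 8 in size. UROD had 441, 266, 228 and 392 FPKM at the same hours, a mean deviation of -0.75. FECH went the other way, with 70.2, 110, 120 and 63.6 FPKM and a mean deviation of 0.78. ALAS1 was lower by less (20.9, 15.4, 17.2 and 18.2 FPKM, mean deviation -0.25). UROS (-0.07), ALAS2 (0.05), CPOX (0.10) and ALAD (0.14) lay within the range of their reference pairs.

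PPOX, UROD and ALAS1 thus lay below all 16 of their reference pairs, 3 of 8 genes against 28% of all genes, and FECH above all of them, 1 of 8 against 43.6%. For ALAS1 this came from 16 h (-0.36), and its deviation at 18 h (-0.14) lay within the range of its reference pairs (-0.20 to 0.17). Its lowest level of the series was not at these hours but at 8 h (14.7 FPKM). PPOX alone was 2-fold or more below the line (7.11% of all genes were), and 0 of the 8 were 2-fold above it (8.95%). At no reference pair did any of the 8 deviate by more than 0.264. The median deviation was -0.01 for the 8 genes and 0.14 for all genes. With 1 library per time point no test was made. Centring each library on its median took the median of all genes to 0.02 and that of the 8 to -0.12.

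For FECH, PPOX and UROD the direction of the deviation was that of genes of like GC content. FECH had the lowest GC content of the 8 (44.3%, longest coding transcript 3853 bases), and genes of 40% to 45% GC had a median deviation of 0.41. PPOX had the highest (59.0%, 1740 bases) and UROD the next (55.4%, 1300 bases), and genes of 55% to 60% GC had a median of -0.30. PPOX lay just below the 10th percentile of its GC class (-0.99), and UROD and FECH lay within theirs. ALAS2, at 55.1% GC, was above the median of the class of PPOX and UROD at 0.05. Genes of 50% to 55% GC had a median of -0.03, with ALAS1 at -0.25 and ALAD at 0.14. Genes of 45% to 50% GC had a median of 0.20, with UROS at -0.07 and CPOX at 0.10. With the GC trend of each library removed, the mean deviations were -0.65 for PPOX, -0.56 for UROD, 0.43 for FECH and -0.24 for ALAS1. Those of UROS (-0.24), ALAS2 (0.23) and ALAD (0.18) were larger in size than before the removal, and that of CPOX changed sign (-0.10). None of the 8 was then 2-fold below. The part of GC content in the levels at 16 h and 18 h was not tested further.

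**Figure D4:**
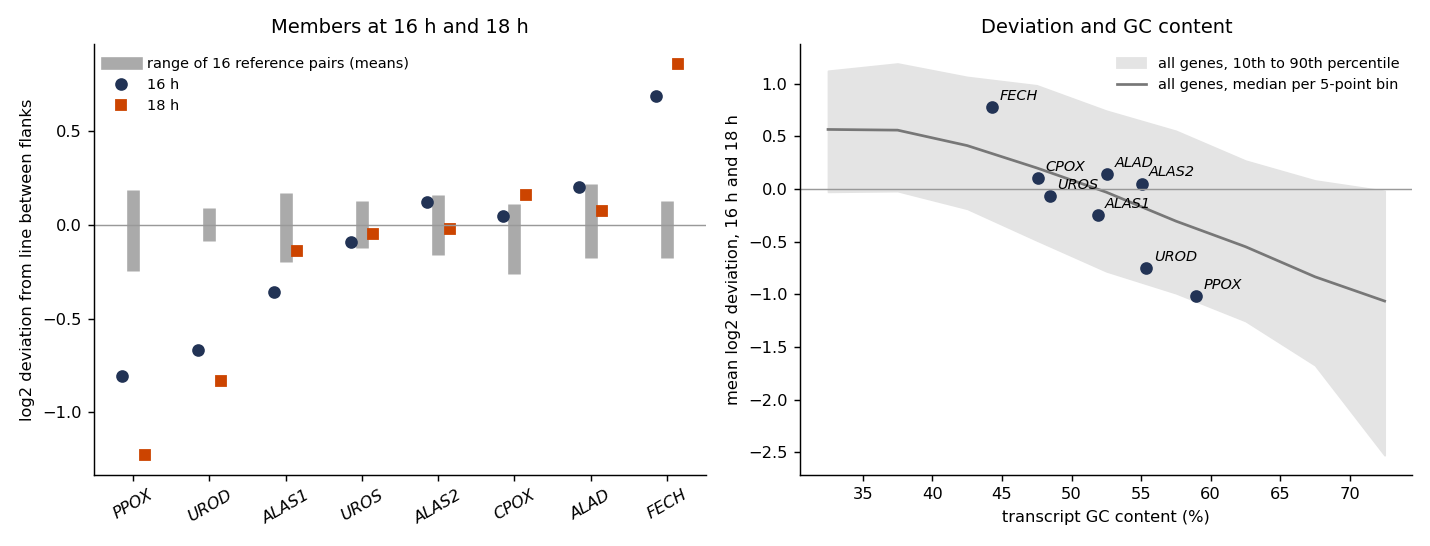
Left, log2 deviation of each gene at 16 h (circles) and 18 h (squares) from the line between 14 h and 20 h, with the range of the means of 16 reference pairs in grey; right, the mean of both deviations against transcript GC content, over the median and the 10th to 90th percentile of all genes per 5-point bin. PPOX (-1.02), UROD (-0.75) and FECH (0.78) stand outside the grey bars by the widest margins, and the median of all genes falls from 0.57 at 30% to 35% GC to -1.06 at 70% to 75%.

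The courses of the 8 genes over the 22 libraries other than 16 h and 18 h were compared with each other. The libraries share a culture and a scaling, so these Pearson correlations are descriptions. Over the 28 pairs the median r was 0.48, and 20 pairs were above 0. ALAS2 and ALAD were the most alike (r = 0.80), then ALAD and UROD (0.79), ALAS2 and FECH (0.76) and UROD and PPOX (0.74). ALAS1 ran against all 7 others, from r = -0.23 with UROD to -0.72 with FECH, and its r with ALAS2 was -0.50. Over all 24 libraries its r was 0.22 with UROD and 0.18 with PPOX, and between successive time points it was above 0 with UROD (0.13), CPOX (0.19) and ALAD (0.04). With all 24 libraries the median r was 0.17, and UROD and PPOX came to 0.94, whereas UROD and FECH went from 0.43 to -0.55. Between successive time points the changes were less alike (median r 0.16), with UROS and UROD highest at 0.83. Among the other 7168 genes that averaged 10 FPKM or more, that closest to ALAS2 was MT2A, a metallothionein (r = 0.96), and that closest to FECH was KRT19, a keratin (0.92). The closest to CPOX was ALDOC, an aldolase (0.90), to UROD GRWD1 (0.90), to UROS PYGO2 (0.86), to ALAS1 LAS1L (0.82) and to PPOX MAP2K7 (0.82), and among 7169 genes the closest to ALAD was DMPK (0.93).

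Of 20 listed genes of mitochondrial supply and transport 18 were in the table, and 1 fell and 0 rose between the days (5.16% and 9.57% of all genes did), the same counts as without the pairs of 16 h and 18 h. The gene that fell was ABCB10, a mitochondrial transporter needed for erythroid heme synthesis, from a median of 60.0 to 47.7 FPKM (-0.27, adjusted p = 0.00704, limma). SLC25A38, the glycine importer (-0.10, adjusted p = 0.210), and SLC25A37, the erythroid iron importer (0.09, adjusted p = 0.387), gave no call. JTK called 3 of the 18 (13% of all genes): ABCB6, a porphyrin transporter (adjusted permutation p = 0.00521), SUCLG2, a subunit of succinyl-CoA synthetase (0.00953), and CYB5R1 (0.0154). Without 16 h and 18 h CYB5R1 was not called (0.0572, against 14.7% of all genes called). At 16 h and 18 h TSPO, an outer membrane protein, had 3.67 and 4.33 FPKM between 29.01 at 14 h and 30.5 at 20 h (mean deviation -2.62), and ABCB8 (-1.10) and SLC25A39 (-1.09) were also 2-fold below.

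Of the 17 genes of iron-sulfur cluster assembly, on which FECH and iron sensing depend, all were in the table. Among those that passed the test between the days, ISCU, the scaffold, fell (-0.26, adjusted p = 0.0421) and FDXR, ferredoxin reductase, rose (0.39, adjusted p = 0.0454, both limma). Without the pairs of 16 h and 18 h FDXR rose by 0.22 (adjusted p = 0.0300) and ISCU was not called (-0.16, adjusted p = 0.0671, both limma). IREB2, an iron regulatory protein, was the only JTK call of the 17 (adjusted permutation p = 0.0380, and 0.0517 without 16 h and 18 h). HSPA9, a mitochondrial chaperone, was 2-fold above its flanks at 16 h and 18 h (1.34) and FDX2, a ferredoxin, 2-fold below (-1.35). Of 17 genes that use, move, sense or break down heme 15 were in the table. SLC48A1, a heme transporter, and BLVRA, a biliverdin reductase, rose (0.25 and 0.24, adjusted p = 0.0278 and 0.0118), and CYC1, cytochrome c1, and NCOA4, which delivers ferritin for breakdown, fell (-0.29 and -0.21, adjusted p = 0.0136 and 0.0191, all limma). Of these 4, SLC48A1 was not called without the pairs of 16 h and 18 h (0.20, adjusted p = 0.0569, limma). HMOX2, the constitutive heme oxygenase, was the only JTK call of these (adjusted permutation p = 0.0413). Without 16 h and 18 h it was not called (0.0572) and SLC48A1 was (0.0459, permutation tests). BLVRB was 2-fold below its flanks at 16 h and 18 h (-1.20).

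Of 12 listed regulators of erythroid and mitochondrial genes 11 were in the table, and JTK called 6 of them (13% of all genes): LDB1 (adjusted permutation p = 0.00256), LMO2 (0.00439), GATA1 (0.00638), TAL1 (0.0106), KLF1 (0.0154) and NRF1 (0.0287). Without 16 h and 18 h these 6 were still called, GATA1 at 0.00259 and KLF1 at 0.0253, and NFE2L1 in addition (0.00745), 7 of 11 against 14.7% of all genes (permutation tests). NFE2 rose between the days (0.24, adjusted p = 0.0302) and NRF1 fell (-0.23, adjusted p = 0.0271, both limma). HIF1A (1.80) and NFE2L1 (1.71) were 2-fold above their flanks at 16 h and 18 h, and KLF1 (-1.55) and GATA1 (-1.18) were 2-fold below.

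Exons of ALAS2 overlap those of APEX2, and exons of PPOX those of B4GALT3, each on the opposite strand. Whether the counting used strand is not given in the sources used here, so the reads of each pair cannot be told apart. APEX2 had 12.2 to 26.5 FPKM and did not pass the test between the days (-0.08, adjusted p = 0.470). B4GALT3 had 28.2 to 51.6 FPKM, fell between the days (-0.22, adjusted p = 0.0471, both limma) and deviated by -0.41 at 16 h and 18 h. CPOX shares exons with another gene model on its own strand that has no row in the table.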

How the data were processed

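FPKM values were used as deposited. The authors aligned reads with STAR and quantified and normalized them with Cufflinks (Cuffnorm, GRCh37, per the submitters' processing notes), and tool versions and annotation are not given in the sources used here. The authors also deposited a cleaned table of scores (Z-score, then quantile normalization), used as an alternative. No value was left unused, steps of whole reads fitted too few of the low values (28.3% or less per library) to recover counts. The members and lists were chosen with earlier results of these data known.

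Deviations and day differences (limma 3.58.1 in R 4.3.3, hour as block) used log2(FPKM + 1) of the 12253 genes averaging 1 FPKM or more. GC trends (lowess) were fitted on the same scale to the 12180 genes with a known GC content. This scale understates changes of low genes. JTK used FPKM of 12285 genes and 100000 permutations. Both tests were run on simulated data with independent time points and no anomaly at 16 h and 18 h. These runs cannot show how either test behaves where neighboring hours depend on each other or libraries are anomalous. Length and GC content (longest coding transcript) and overlaps came from GENCODE 29 (GRCh38), which matched 12180 genes and gave no coordinates, since the builds differ. Symbols matched 12123 genes. Linked genes were named where they passed a test, or stood 2-fold from their flanks at 16 h and 18 h, up to 4 per list and direction, and each member's closest gene by r. Alternatives were a pseudocount of 0.1, filters on the mean, scalings, GC removal, periods of 20 h and 28 h and left-out libraries. Some results for the linked genes and markers are not reported here.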

Additional observations from a re-analysis of the deposited data

How the results depend on the processing

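By replicate number, no paired analysis was possible because each time point has 1 library. The pairs used are of libraries 24 h apart, and without the hour block the same count of members was called (3 lower, 0 higher). The falls of ALAS2 and ALAD kept their direction and call in every alternative run in which they had a value (adjusted p up to 0.000638 and 0.0438, limma). ALAD has no value at a mean of at least 10 FPKM. FECH lost its call without the pairs starting at 6 h and 8 h (adjusted p = 0.0747) at a nearly equal change (-0.31, against -0.32). CPOX passed the test as a straight-line slope (-0.19 per 24 h), where UROS (-0.0103), UROD (-0.0300) and PPOX (-0.0273) changed sign. UROD (-0.0502) and PPOX (-0.0402) also did so without the pairs of 16 h and 18 h. JTK called 0 of the 8 genes at 20 h, and 1 at 28 h or with the GC trend removed (434, 384 and 814 genes in all, against 1602). UROS was called in 10 of 11 alternatives, UROD in 8 of 11, ALAD in 5 of 10 and PPOX in 3 of 11. At 16 h and 18 h the members 2-fold below numbered 2 after quantile normalization or at a 1.5-fold threshold (1 above), and 0 with the GC trend removed or at 16 h alone. Their median deviation was -0.12 median centred, -0.25 with upper-quartile scaling, -0.24 after quantile normalization and -0.17 with the GC trend removed. Over all genes, those above numbered 568 (upper quartile), 652 (quantile), 653 (GC trend removed) and 2933 (1.5-fold), and those below 1308 (pseudocount 0.1), 1321 (upper quartile), 479 (GC trend removed), 2060 (1.5-fold) and 549 (mean of at least 10 FPKM). The median r of the 28 pairs was 0.17 over all 24 time points and 0.16 for successive differences. Of all genes, 1173 were higher and 632 lower on the second day. At a mean of at least 10 FPKM these were 424 and 351, and the lower ones numbered 339 without the pairs starting at 6 h and 8 h, 1003 after quantile normalization and 1010 with the GC trend removed. Alternatives added after the values were seen left out 16 h and 18 h for the linked genes and markers, and each pair in turn. Leaving out those starting at 10 h, 12 h, 14 h, 16 h and 20 h gave 356, 387, 406, 407 and 421 lower genes. The causes were not tested. The depth is unknown, so the counting error of single values, above all those of ALAD, cannot be given.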
